A study of Mus musculus with 3 samples.

Results

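The 9 genes that encode the subunits of the AMPA and kainate types of ionotropic glutamate receptor were examined for ATRX peaks in mouse neurons. They are the 4 AMPA receptor genes Gria1, Gria2, Gria3 and Gria4 and the 5 kainate receptor genes Grik1, Grik2, Grik3, Grik4 and Grik5, out of 21887 annotated protein-coding genes. A peak was assigned to a gene when it touched the gene's annotated span or the 5 kb on either side. By this rule 146 of the 112153 peaks in the control list and 145 of the 105674 peaks in the MICAL1-FL list belonged to the 9 genes. Chromatin immunoprecipitation with sequencing (ChIP-seq) was performed with an antibody against ATRX on primary neurons grown from C57BL6/J mouse embryos at E15.5-17.5. Lentivirus was added to the cultures on day 5 in vitro, and the neurons were used on day 14. In the control the label names mCherry, a red fluorescent protein, and in the other condition it names MICAL1-FL, so both conditions were infected. Each condition had 1 library, the labels do not say whether neurons of several embryos were pooled, and an input sample of control neurons was not analysed here. Peak identifiers start with CTL in the control list and with TBC_M2 in the other. Conditions were taken from the sample titles, and every MICAL1-FL value below rests on that label. Peak lists do not measure expression, so the neuronal identity of the cultures was not checked against markers.

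AMPA receptors carry most fast excitatory transmission in the brain. They are tetramers of the subunits GluA1 to GluA4, and the edited GluA2 subunit makes them nearly impermeable to calcium. Kainate receptors are tetramers that modulate transmission on both sides of the synapse. GluK1, GluK2 and GluK3, encoded by Grik1, Grik2 and Grik3, form functional channels on their own, whereas GluK4 and GluK5, encoded by Grik4 and Grik5, bind kainate with high affinity and need one of the other three as a partner. ATRX is an ATP-dependent chromatin remodelling protein that works with DAXX to deposit the histone variant H3.3 and is known for its presence at repeats and at GC-rich sequence, and mutations in its gene cause intellectual disability. MICAL1 is a flavoprotein that oxidises actin filaments.

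The peaks of both lists were shallow. The fold and p-value deposited for each peak gave back its depth, the number of ChIP fragments stacked at its highest point. Fragment numbers of peaks below are depths and not counts of all fragments in a peak. The peaks of the receptor genes had a median depth of 5 fragments in either list, from a lowest of 4 to a highest of 9. Peaks of at most 6 fragments made up 82.9% of the control peaks and 86.2% of the MICAL1-FL peaks at these genes, against 83.3% and 85.8% of all peaks in the lists. The fold over background as given by the authors ran from 1.74 to 3.81 in the control and from 1.71 to 3.82 with MICAL1-FL. No receptor gene peak had a deposited q-value below 0.05, which 0.416% of all control peaks and 0.380% of all MICAL1-FL peaks did. Only 5 control and 3 MICAL1-FL peaks of the receptor genes had a q-value below 1. A peak listed in 1 condition alone therefore does not show a difference in ATRX signal at that place, and single libraries leave no test of one condition against the other. In whole cultures, ATRX signal per cell and the share of cells that carry it cannot be told apart. The intervals given below are 95% intervals and cover counting error only.

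Most of the receptor genes with an annotated start had a peak close to it. RefSeq's promoter table, on the build GRCm38.p6, matched 6 of the 9 genes, namely Gria2, Gria4, Grik2, Grik3, Grik4 and Grik5; Gria1, Gria3 and Grik1 were not matched. A peak lay within 1 kb of the annotated start at 5 of these 6 genes in the control, against 24.2% of all genes in that table and 43.2% of those of at least 100 kb. With MICAL1-FL the same was true of 4 of the 6, against 23.6% of all and 41.8% of the long genes. Both lists placed a peak there at 3 of the 6, which were Gria4, Grik2 and Grik3, against 9.62% of all and 24.2% of the long genes. All 6 had such a peak in at least 1 list, where 38.2% of all genes and 60.8% of the long genes did. The far end of the gene held a peak within 1 kb at 1 of the 6 in the control, Grik3, and at 0 of the 6 with MICAL1-FL, against 8.48% and 7.39% of all genes in the table. These start peaks were few among the peaks of the 6 genes, 6 of 104 in the control and 5 of 111 with MICAL1-FL. Long genes had peaks at their starts more often than genes as a whole, and 5 of the 6 receptor genes are long. No interval was computed for these shares, and 6 genes are too few to tell them from the shares of long genes.

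The promoter sequence at these 6 starts was examined in a window of 300 bases, from 250 bases before the start to 50 after it. Base composition below is that of the whole window and not of the bases under a peak. A peak covered some of this window at 9.82% of all genes in the control and at 10.4% with MICAL1-FL. The shares of long genes, the closer background for most of the 6, were not computed for this window. Among the 6 receptor genes the control peaks reached into it at Grik2, Grik4 and Grik5 and the MICAL1-FL peaks at Gria2 and Grik2. These 4 windows are shown because they are the stretches of receptor gene promoter that lay under a peak, each in the direction of transcription from 5′ to 3′ on the minus strand as RefSeq gives it. Capitals mark the bases under a peak: for Gria2 the MICAL1-FL peak, for Grik2 the part shared by the peaks of both lists, and for Grik4 and Grik5 the control peak. The windows are chr3:80802786-80803085 for Gria2, chr10:49788705-49789004 for Grik2, chr9:42944322-42944621 for Grik4 and chr7:25072320-25072619 for Grik5.
Gria2: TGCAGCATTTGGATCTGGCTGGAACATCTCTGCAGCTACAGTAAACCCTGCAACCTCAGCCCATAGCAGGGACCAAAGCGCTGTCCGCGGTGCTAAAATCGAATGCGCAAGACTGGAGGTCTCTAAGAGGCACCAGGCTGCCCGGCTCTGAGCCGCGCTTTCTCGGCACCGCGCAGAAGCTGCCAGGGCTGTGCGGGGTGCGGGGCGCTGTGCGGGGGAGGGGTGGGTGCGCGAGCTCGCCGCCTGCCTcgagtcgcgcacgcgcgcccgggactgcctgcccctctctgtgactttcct
Grik2: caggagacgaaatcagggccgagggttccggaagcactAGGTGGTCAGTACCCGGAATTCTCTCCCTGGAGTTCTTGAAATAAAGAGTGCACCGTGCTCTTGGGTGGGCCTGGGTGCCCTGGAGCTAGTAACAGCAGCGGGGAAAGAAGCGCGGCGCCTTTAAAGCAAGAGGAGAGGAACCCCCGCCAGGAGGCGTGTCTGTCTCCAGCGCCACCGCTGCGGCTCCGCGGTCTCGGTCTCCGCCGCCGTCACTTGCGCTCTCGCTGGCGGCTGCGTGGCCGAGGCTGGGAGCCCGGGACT
Grik4: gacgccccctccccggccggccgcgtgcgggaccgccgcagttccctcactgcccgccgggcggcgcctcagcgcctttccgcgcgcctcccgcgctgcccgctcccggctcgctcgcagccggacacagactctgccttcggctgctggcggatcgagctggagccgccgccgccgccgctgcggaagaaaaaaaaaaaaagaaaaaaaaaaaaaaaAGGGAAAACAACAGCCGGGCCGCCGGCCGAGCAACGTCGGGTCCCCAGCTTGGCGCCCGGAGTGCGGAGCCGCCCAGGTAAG
Grik5: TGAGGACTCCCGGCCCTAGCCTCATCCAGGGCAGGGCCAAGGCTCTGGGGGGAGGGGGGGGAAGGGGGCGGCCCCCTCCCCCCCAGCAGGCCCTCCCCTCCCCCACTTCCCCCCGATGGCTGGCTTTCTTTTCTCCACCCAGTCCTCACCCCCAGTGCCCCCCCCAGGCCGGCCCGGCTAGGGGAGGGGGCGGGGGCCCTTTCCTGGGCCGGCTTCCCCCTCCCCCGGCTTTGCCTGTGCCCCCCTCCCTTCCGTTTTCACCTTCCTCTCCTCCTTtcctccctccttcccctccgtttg
The Grik2 window lay wholly under the control peak, for 300 bases, and for 262 bases under the MICAL1-FL peak. At Gria2 the MICAL1-FL peak covered 249 bases, all of them before the start. At Grik4 the control peak reached only the last 82 bases, beyond a run of A, and at Grik5 it covered 276 bases. All 4 windows are rich in G and C, at 65.7% for Gria2, 64.7% for Grik2, 70.0% for Grik4 and 72.0% for Grik5, where the median of 17492 gene promoters was 56.3%. They differ in CpG: Grik4 held 42, Gria2 and Grik2 held 26 each, and Grik5 held 10, below the median of 13. The windows of Gria4 and Grik3, at 59.7% and 82.0% G and C with 17 and 50 CpG, held no base under a peak in either list. The motif GGGG, searched on both strands, was present in all 6 windows and in 87.3% of all promoters, so its presence does not set them apart.

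The peaks at the 6 starts differed in side and in height. At Gria4, the gene for GluA4, a control peak of 8 fragments at chr9:4795653-4796074 and a MICAL1-FL peak of 7 fragments at chr9:4795620-4795873 lay just inside the gene, 160 and 361 bp past the start. At Grik2 a control peak of 6 fragments and a MICAL1-FL peak of 9 fragments both covered the start itself. The latter, at chr10:49788371-49788966, had the highest fold of any MICAL1-FL peak at the receptor genes, 3.82, and the lowest q-value, 0.139. At Grik3 the pair lay before the start, a control peak of 8 fragments at chr4:125489285-125490425, 271 bp away, and a MICAL1-FL peak of 4 fragments at chr4:125489788-125490353, 343 bp away. That control peak was the widest at the receptor genes, at 1141 bp. A second MICAL1-FL peak of 7 fragments at chr4:125491395-125491965 lay 699 bp past the Grik3 start. The other 3 genes had a start peak in a single list. Gria2 had one only with MICAL1-FL, at chr3:80802837-80803104, with 7 fragments and a fold of 2.17. Grik4 had one only in the control, at chr9:42943950-42944403, with 7 fragments and a fold of 2.42. Just outside the 1 kb window Grik4 also had a MICAL1-FL peak of 9 fragments at chr9:42942845-42943163, 1208 bp past the start. Grik5 had control peaks at chr7:25072344-25072964, of 7 fragments over the start, and at chr7:25073278-25073773, of 6 fragments and 909 bp before it.

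**Figure D1:**
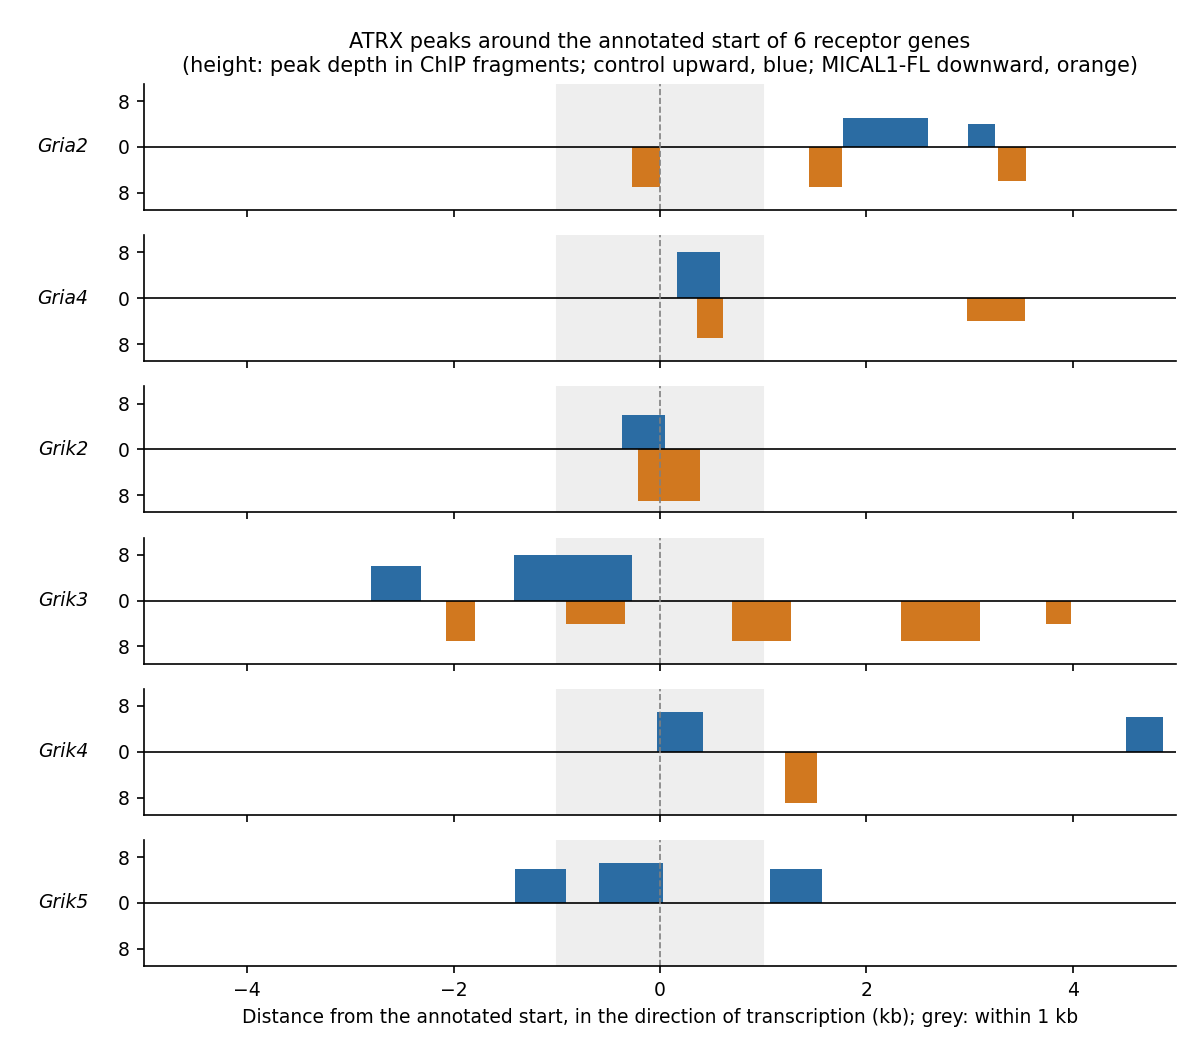
Peaks within 5 kb of the annotated start of the 6 receptor genes found in the promoter table. The horizontal axis is the distance from the start in kb in the direction of transcription, block height is the peak's depth in ChIP fragments, control peaks point up and MICAL1-FL peaks down, and grey marks 1 kb on either side. Blocks of both lists overlap at Gria4, Grik2 and Grik3.

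Gria1, Gria3 and Grik1 were measured from both ends of their spans. A control peak of 8 fragments at chr11:57011069-57011813 lay within 1 kb of the low-coordinate end of Gria1, and a MICAL1-FL peak of 5 fragments at chr16:87895805-87896089 within 1 kb of that of Grik1. Gria3 had no peak within 1 kb of either end. Counted over both ends of the span, 4 of the 9 genes had a peak within 1 kb in the control, where 29.3% of all protein-coding genes did, and 3 of the 9 with MICAL1-FL, where 27.9% did. Both lists had one at 2 of the 9, Gria4 and Grik3, against 12.3% of all genes. At Gria2, Grik2 and Grik5 the start in the promoter table lies further inside the annotated span, so their start peaks are not among these. All of the 9 but Grik5 are long genes, and the shares of long genes were not computed for the ends.

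Taken over their whole length, the receptor genes carried about as many ATRX peaks as other long genes. The 9 spans with their flanks add up to 2.996 Mb and held 48.7 peaks per Mb in the control (interval 41.2 to 57.3) and 48.4 with MICAL1-FL (40.9 to 57.0). Over all protein-coding genes the densities were 46.8 and 43.4 per Mb. The 2429 protein-coding genes of at least 100 kb had a median of 45.7 per Mb in the control, with quartiles at 28.01 and 68.5, and of 44.7 with MICAL1-FL, with quartiles at 28.7 and 62.4. The AMPA receptor genes held 42 control and 50 MICAL1-FL peaks, or 36.9 (26.6 to 49.9) and 44.0 (32.6 to 58.0) per Mb. The kainate receptor genes held 104 and 95, or 56.0 (45.7 to 67.8) and 51.1 (41.4 to 62.5) per Mb. The intervals of the 2 families overlapped in both lists. In the control they no longer did without Gria1, which left the AMPA receptor genes at 21.0 per Mb (12.2 to 33.7). The same held without Grik2, which left the kainate receptor genes at 69.5 (55.1 to 86.5). Other omissions narrowed the gap in the control. Without the X-linked Gria3 the AMPA receptor genes stood at 47.1 (33.63 to 64.1), and without Grik4 the kainate receptor genes at 43.6 (33.45 to 55.93). With MICAL1-FL, leaving out Gria3 put the AMPA receptor genes at 56.5 (41.65 to 74.89), above the kainate receptor genes. The order of the families thus depended on single genes. Single genes differed far more than the families did, from the sparse Gria3 to Grik4, the densest in the control.

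**Figure D2:**
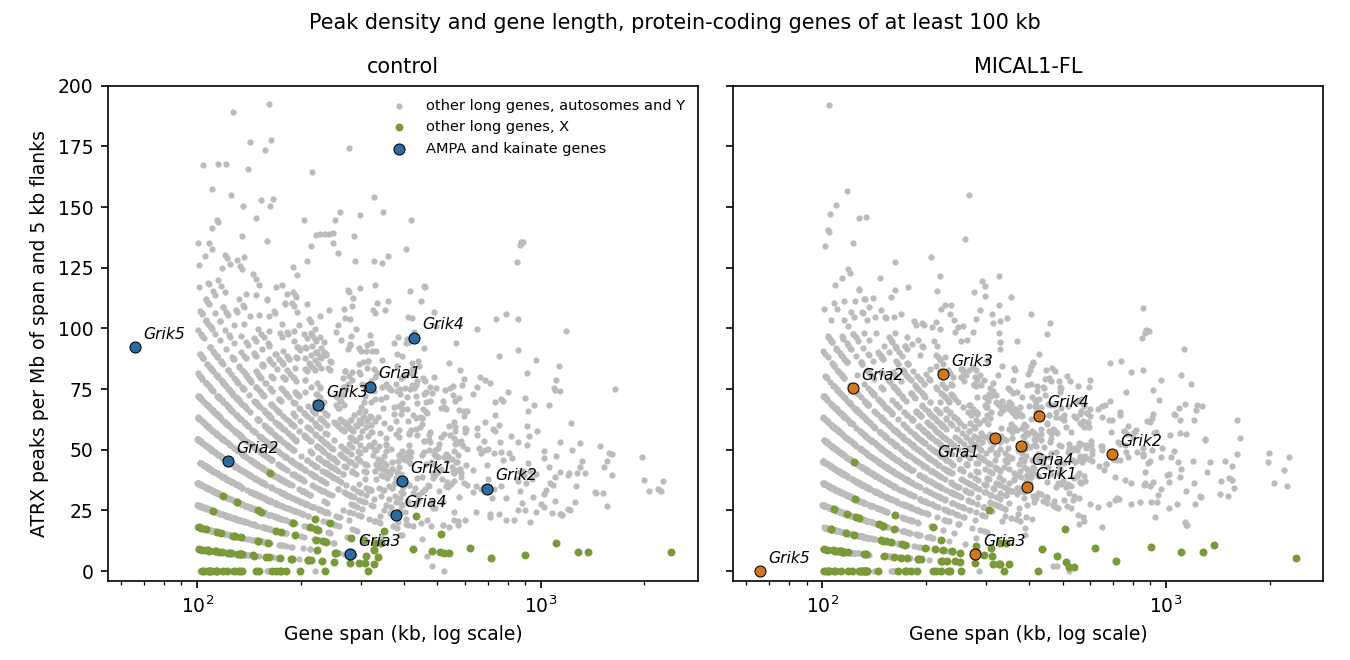
ATRX peaks per Mb against gene length on a log scale, in the control (left) and with MICAL1-FL (right). Large circles are the AMPA and kainate receptor genes, small grey points the other protein-coding genes of at least 100 kb and small green points those on chromosome X; 13 genes above 200 peaks per Mb in each panel are not drawn, and Grik5 is shorter than 100 kb. Gria3 sits among the X-linked genes, and Grik5 moves from 92.3 to 0 between the panels.

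Among the AMPA receptor genes, Gria1 had the most control peaks. Gria1 encodes GluA1, whose insertion at synapses accompanies long-term potentiation. Its span of 318.7 kb on chromosome 11 held, with the flanks, 25 peaks in the control (16.2 to 36.9) and 18 with MICAL1-FL (10.7 to 28.5), which is 76.1 and 54.8 per Mb. The strongest peak of a gene was taken as the one with the highest deposited −log10 p in each list. In the control it was a peak of 9 fragments at chr11:57091561-57092030. It had a fold of 3.81 and a q-value of 0.182. With MICAL1-FL the strongest was a peak of 8 fragments at chr11:57009816-57010249, 1322 bp before the low end of the span, with a fold of 3.34. The control peaks were spread along the gene with no gap over 26.6 kb, whereas the MICAL1-FL list had no summit in the last 65.2 kb of the span.

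Gria2 encodes the GluA2 subunit that sets calcium permeability. On chromosome 3, in 122.8 kb and the flanks, it held 6 control peaks (2.20 to 13.1) and 10 MICAL1-FL peaks (4.80 to 18.4), or 45.2 and 75.3 per Mb. The second of these densities was above that of 86.5% of long genes and the first above that of 49.1%. The strongest control peak had 7 fragments at chr3:80791092-80791400, and with MICAL1-FL 2 peaks of 7 fragments tied, the first at chr3:80706387-80706669. No peak of Gria2 overlapped between the lists.

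Gria3, the X-linked gene for GluA3, was the sparsest of the 9 in the control. Its 277.8 kb and flanks held 2 peaks in either list (0.242 to 7.23), or 6.95 per Mb, which was above 3.62% of long genes in the control and 4.08% with MICAL1-FL. Long genes on chromosome X had low densities as a group, with medians of 7.63 and 6.74 per Mb over 114 genes. Among these Gria3 stood near the middle, above 41.2% of them in the control and 51.8% with MICAL1-FL. Its peaks had a depth of 4 or 5 fragments each, and the strongest were chrX:41637374-41637686 in the control and chrX:41490190-41490475 with MICAL1-FL.

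Gria4 had the largest excess of MICAL1-FL peaks. On chromosome 9, in 378.3 kb and the flanks, it held 9 control peaks (4.12 to 17.1) and 20 MICAL1-FL peaks (12.2 to 30.9), or 23.2 and 51.5 per Mb. The first density was above that of 17.7% of long genes and the second above 60.6%. The highest −log10 p was shared by 4 control peaks of 6 fragments, the first at chr9:4507279-4507524, and by 4 MICAL1-FL peaks of 6 fragments, the first at chr9:4551691-4552053. In the control a stretch of 139.6 kb, from 27.1 to 166.7 kb into the gene, held no summit. In the MICAL1-FL list the longest such stretch was 60.1 kb. Fewer summits leave longer stretches at any gene, and stretches were not measured at long genes beyond the 9. The stretches given here for single genes therefore have no background.

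Among the kainate receptor genes that form channels alone, Grik1 on chromosome 16 had 15 control peaks (8.40 to 24.7) and 14 MICAL1-FL peaks (7.65 to 23.5) in 395.0 kb and the flanks, or 37.0 and 34.6 per Mb. The strongest MICAL1-FL peak had 8 fragments at chr16:87971497-87971820 and a fold of 3.44, and 5 control peaks of 6 fragments tied, the first at chr16:87898786-87899310. Annotated long noncoding RNA genes overlap the Grik1 span, and 5 of its control peaks and 3 of its MICAL1-FL peaks also lay in LOC115486002. These peaks cannot be assigned to either gene alone.

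Grik2 encodes GluK2, a main kainate receptor subunit of the forebrain, and was the longest of the 9 at 696.5 kb on chromosome 10. With its flanks it held 24 control peaks (15.4 to 35.7) and 34 MICAL1-FL peaks (23.6 to 47.5), or 34.0 and 48.1 per Mb. The 5 equal parts of the gene, from the start onward, held 7, 3, 1, 10 and 3 control peaks and 8, 2, 10, 8 and 6 MICAL1-FL peaks. The middle part was thus nearly empty in the control, where 207.7 kb from 182.5 to 390.2 kb into the gene held no summit. The strongest control peak, of 8 fragments, lay near the start at chr10:49782379-49782756.

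Grik3, for the low-affinity subunit GluK3, held 16 control peaks (9.15 to 26.0) and 19 MICAL1-FL peaks (11.4 to 29.7) in 223.9 kb and the flanks on chromosome 4, or 68.4 and 81.2 per Mb. The MICAL1-FL density was above that of 90.2% of long genes, the highest such rank of the 9 in that list. Its strongest peak in either list was one of the start peaks given above. A control peak of 6 fragments at chr4:125713317-125713730 lay 443 bp from the far end.

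Grik4 and Grik5, the genes of the high-affinity subunits, had the highest control densities of the 9. Grik4 held 42 control peaks (30.3 to 56.8) and 28 MICAL1-FL peaks (18.6 to 40.5) in 426.8 kb and the flanks on chromosome 9, or 96.2 and 64.1 per Mb. The control value was above that of 91.8% of long genes. Its strongest control peaks were 2 of 8 fragments, the first at chr9:42759977-42760338, and its strongest MICAL1-FL peak had 7 fragments at chr9:42745919-42746211. The MICAL1-FL list had no summit from 206.9 to 287.6 kb into the gene.

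Grik5 was the only one of the 9 with no peak in 1 of the lists. Its span of 65.8 kb on chromosome 7 held, with the flanks, 7 control peaks (2.81 to 14.4), or 92.3 per Mb, and 0 MICAL1-FL peaks (0 to 3.69). The ratio of the numbers was 0, with an interval of 0 to 0.694. Of the 1986 protein-coding genes with at least 7 control peaks, 4 (0.201%) had 0 MICAL1-FL peaks, Grik5 among them, and of the 286 with exactly 7 control peaks 2 (0.699%) had none. In the other direction 0.218% of genes with at least 7 MICAL1-FL peaks had 0 control peaks. Grik5 was singled out after its values were seen. Its control peaks had depths of 5 to 7 fragments: 3 lay near the start, 2 in the far part of the span and 2 beyond the far end. In the 500 kb on either side of Grik5 the control list had 47 peaks and the MICAL1-FL list 29, a ratio of 0.617 (0.3745 to 1.001). With the flank widened to 20 kb the counts were 9 and 1.

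**Figure D3:**
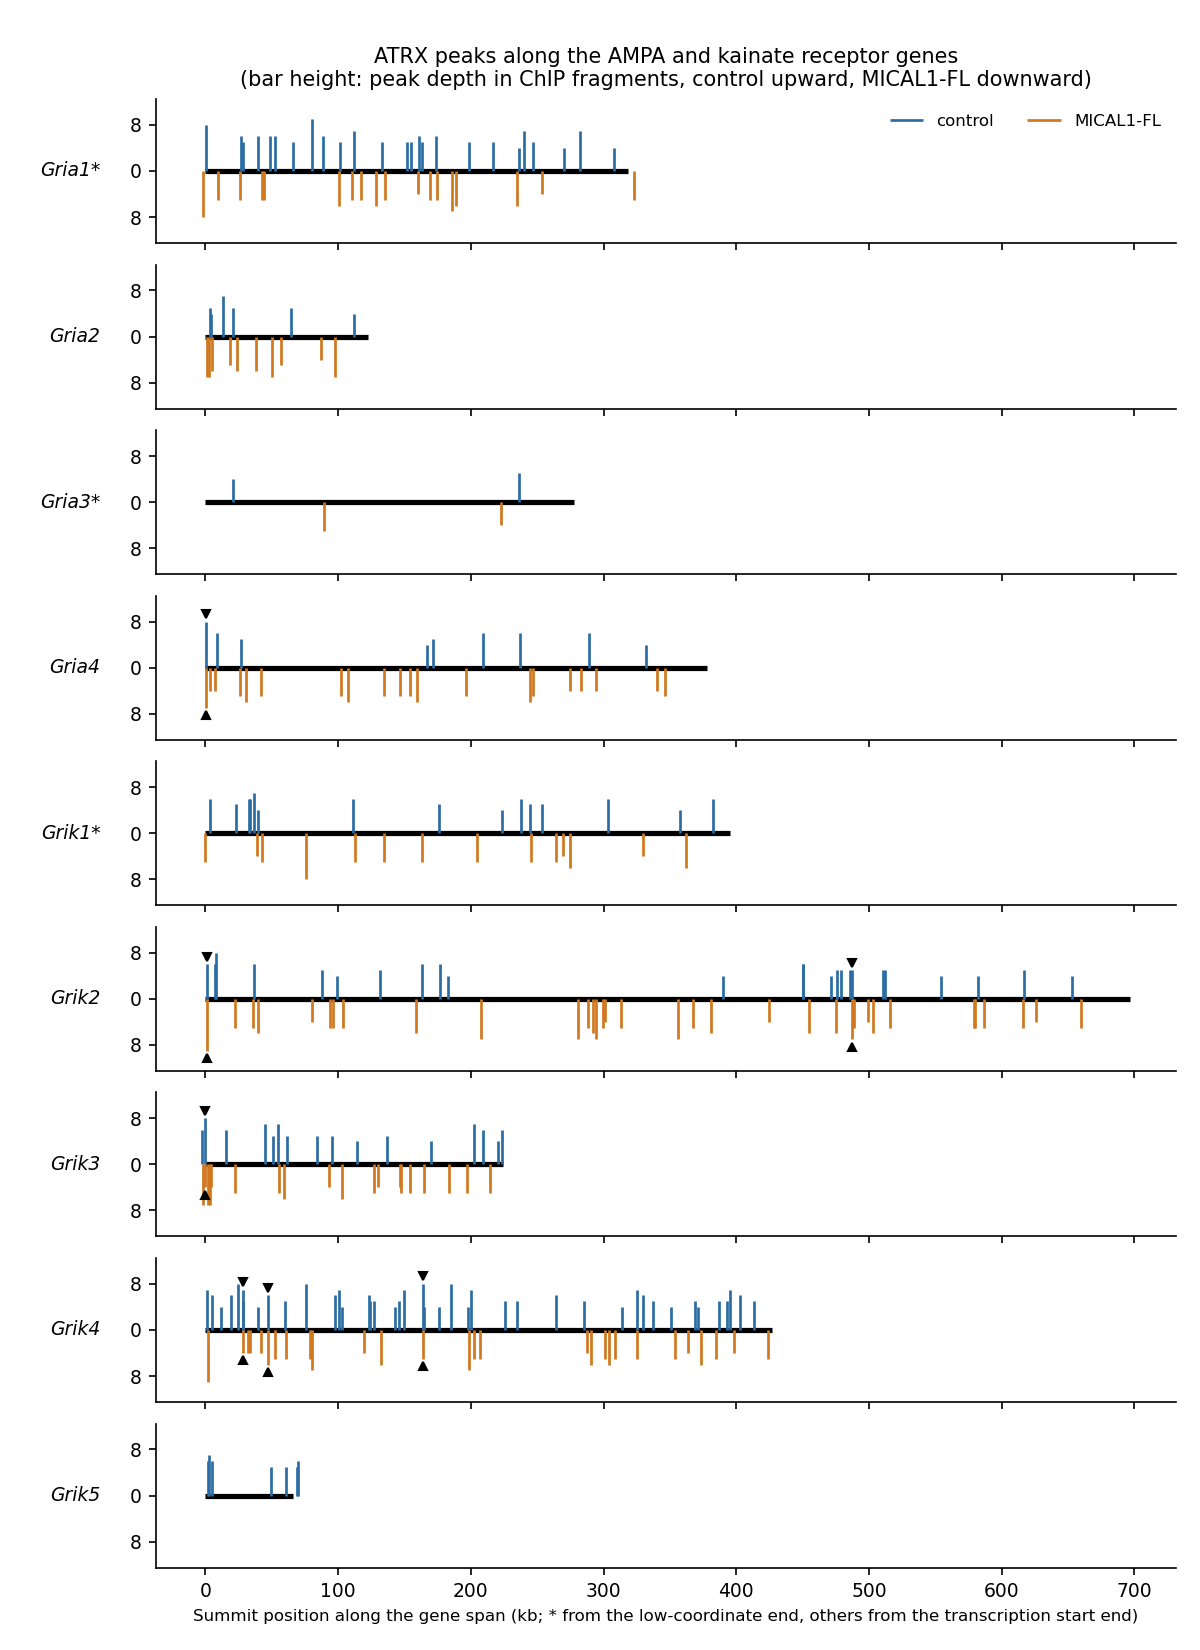
Summit positions of all peaks along the 9 genes, in kb from the transcription start end of the span or, for the genes with an asterisk, from the low-coordinate end. The black line is the gene, bars give the depth of a peak in ChIP fragments with control up and MICAL1-FL down, and triangles mark peaks that overlap a peak of the other list. Grik2 and Gria4 have long empty stretches in the control, Gria3 is sparse in both lists, and Grik5 has no MICAL1-FL peak.

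Set side by side, the lists gave nearly the same total over the 9 genes. The numbers of single genes differed, at most of them within counting error. Divided by the control number, the MICAL1-FL number gave a ratio of 0.993 over the 9 genes (0.784 to 1.258), 1.19 over the AMPA receptor genes (0.774 to 1.84) and 0.914 over the kainate receptor genes (0.684 to 1.22). It was 0.926 over all protein-coding genes, so each gene was read relative to that value, on a log2 scale. Of the 9 genes 7 had at least 10 peaks over both lists, and their median log2 ratio relative to all genes was 0.36, where that of 2602 genes with at least 10 peaks was 0.00. The ratio was at least 1.5-fold above that of all genes at 3 of the 7, against 20.7% of such genes, and at least 1.5-fold below at 0 of the 7, against 19.5%. The 3 were Gria4, at a log2 value of 1.263 (0.06 to 2.58), Gria2, at 0.85 (-0.75 to 2.59), and Grik2, at 0.61 (-0.18 to 1.43). The remaining 4 were Grik3 at 0.36 (-0.68 to 1.42), Grik1 at 0.01 (-1.15 to 1.16), Gria1 at -0.36 (-1.32 to 0.57) and Grik4 at -0.47 (-1.22 to 0.25). The interval left out the ratio of all genes at 1 of the 7, Gria4, and at 3.46% of such genes. For the other 6 the counts were too few to tell the ratio from that of all genes. With only peaks of a −log10 p of at least 2, the value of Gria4 was 0.89 (-0.57 to 2.48) and its interval included 0, while that of Grik2 was 1.01 (0.02 to 2.06). Grik5 is not among the 7, having fewer than 10 peaks, and goes the other way: its interval ended at -0.42.

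**Figure D4:**
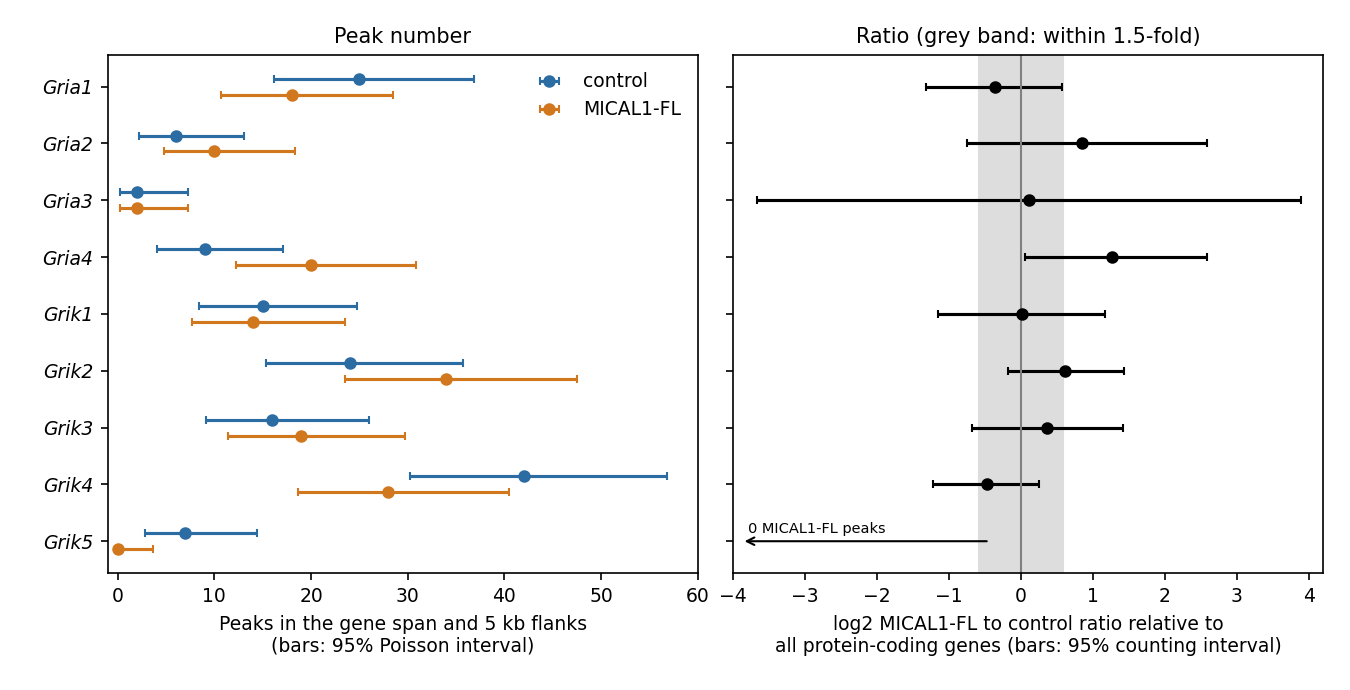
Left, number of peaks in the span and 5 kb flanks of each receptor gene, with 95% Poisson intervals. Right, log2 of the MICAL1-FL number over the control number relative to that of all protein-coding genes, with 95% counting intervals and the range within 1.5-fold in grey. The interval of Gria4 lies just above 0, that of Grik5 is open downward because it had 0 MICAL1-FL peaks, and the others with at least 10 peaks include 0.

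At Gria4, Grik2, Gria1 and Gria3 the surroundings lay on the other side of the ratio of all genes, although with intervals that overlapped the gene's own. In the 500 kb on either side of Gria4 the numbers were 44 in the control and 30 with MICAL1-FL, a ratio of 0.682 (0.414 to 1.11), where the gene itself had 2.22 (0.967 to 5.54). Around Gria1 they were 53 and 73, a ratio of 1.38 (0.954 to 2.00), where the gene had 0.720 (0.370 to 1.37). Around Grik2 they were 53 and 48, or 0.906 (0.600 to 1.36), and the gene had 1.42 (0.816 to 2.497). Around Gria3 they were 14 and 5, or 0.357 (0.101 to 1.05), and the gene, with 2 and 2, had a ratio of 1 (0.0725 to 13.8). The surroundings of the other 5 genes had ratios from 0.617 at Grik5 to 1.09 at Grik3, with 53 and 58 peaks.

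Few peaks of the receptor genes were at the same place in both lists. An overlap of at least 1 bp was found for 7 of the 146 control peaks, or 4.79% (1.95 to 9.63), and for 7 of the 145 MICAL1-FL peaks, or 4.83% (1.96 to 9.69). Over all peaks the shares were 6.89% and 7.30%, and over the peaks at protein-coding genes 8.06% and 8.70%, all within these intervals. The pairs belonged to 4 of the 9 genes, all 4 among the 7 with at least 10 peaks, where 59.2% of such genes had a pair. The AMPA receptor genes had 1, the start pair of Gria4, and the kainate receptor genes had 6. The start pairs of Gria4, Grik2 and Grik3 overlapped by 221, 262 and 566 bp. Grik4, with 3, had the most: its pairs at chr9:42781055-42781371, chr9:42897488-42897859 and chr9:42916923-42917243 in the control overlapped MICAL1-FL peaks by 263, 67 and 85 bp. Their summits lay 23, 165 and 135 bp apart. The remaining pair lay deep in Grik2, at chr10:49302539-49303154 in the control, overlapped by 461 bp and had summits 578 bp apart. Of the 7 pairs 3 were thus at an annotated start.

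Summed over the genes, peaks were most numerous in the part that holds the start. Of the 100 control summits inside the spans of the 6 genes with an annotated start, 30 lay in the first of 5 equal parts (interval 21.2 to 39.98%). With MICAL1-FL 33 of 109 did, or 30.3% (21.8 to 39.8). Over the 1866 long genes with an annotated start the shares were 22.7% and 22.5%, within both intervals. At Grik4 the first part held 11 of 42 control and 10 of 28 MICAL1-FL summits, and at Gria4 3 of 9 and 6 of 20. Single genes did not all share this order. In the control the second part of Grik4 also held 11 and the third part of Gria4 also held 3, and Grik3 had 2 of 14 in its first part. At Grik2 the fullest part was the fourth in the control and the third with MICAL1-FL, with 10 each. Flanks contributed little: 4 control peaks, at Grik3 and Grik5, and 5 MICAL1-FL peaks, at Gria1, Grik1 and Grik3, had their summit outside the span.

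Genes for partners of AMPA and kainate receptors were counted in the same way, as a list of 31 auxiliary subunits, scaffolds, pentraxins, assembly factors and RNA-editing enzymes. They held 223 control and 189 MICAL1-FL peaks, or 67.8 (59.2 to 77.3) and 57.5 (49.6 to 66.3) per Mb, with a ratio of 0.848 (0.695 to 1.03). The most peaks were at Grip1, a scaffold that binds GluA2 and GluA3, with 47 and 43, at Shisa9, an auxiliary AMPA receptor subunit, with 38 and 32, and at Gsg1l, another auxiliary subunit, with 14 and 17. Of 10 partner genes with at least 10 peaks, 1 was past 1.5-fold upward relative to all genes and 3 downward, against 20.7% and 19.5% of all such genes. The former was Dlg1, a scaffold of the postsynaptic density, with 5 and 7. The latter were the auxiliary subunit genes Cacng2, which encodes stargazin, with 14 and 8, Cnih3 with 17 and 9, and Shisa6 with 17 and 9. No interval of these 4 genes left out the ratio of all genes. The median log2 ratio of the 10 was -0.14, where that of the 7 receptor genes was 0.36. Both medians leave out genes with fewer than 10 peaks, Grik5 among them. Pooled over all 31 partner genes the log2 value came to -0.13 (-0.42 to 0.16), and over all 9 receptor genes to 0.10 (-0.24 to 0.44). These intervals overlapped, so the ratio does not tell partner genes from receptor genes.

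Of the other glutamate receptor families, the NMDA receptor genes were denser in peaks than the AMPA and kainate receptor genes. The NMDA receptor genes held 86.6 control peaks per Mb (71.0 to 104.7) and 75.3 with MICAL1-FL (60.8 to 92.2), with most at Grin2b, 55 and 48, and Grin2a, 33 and 31. In both lists the interval lay above that of the 9 AMPA and kainate receptor genes. With MICAL1-FL it overlapped that of the kainate receptor genes alone (41.4 to 62.5). Grin2b, at 116.9 and 102.0 per Mb, held 55 of the 107 control and 48 of the 93 MICAL1-FL peaks of the NMDA receptor genes. Their density without Grin2b was not computed, so the difference may rest on a single gene. Peaks shared between the lists were 13.1% of those in the control (7.34 to 21.0) and 15.1% of those with MICAL1-FL (8.48 to 24.0), and these intervals overlapped those of the AMPA and kainate receptor genes. The metabotropic receptor genes had 40.7 and 45.8 peaks per Mb, with most at Grm7, 52 and 53, and Grm8, 22 and 31.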

How the data were processed

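ATRX ChIP-seq peak lists of the control and MICAL1-FL libraries were used as deposited, 1 list per library. The submitters' processing notes name MACS 1.4.2, Bowtie 1.3.0, ChIPseeker 1.26.2 and SAMtools 1.9 without saying what each did. Neither a genome build nor a calling threshold is given in the sources used here, and scaffold names fit GRCm38. Each deposited peak has a score, a fold, which is a ratio over the authors' background, a −log10 p, a −log10 q and a summit offset. The depth of a peak was solved from the deposited fold, as depth plus 1 over background plus 1, and from the p-value, taken as a Poisson tail above that depth; 99.95% of peaks in both lists came within 0.001 of the deposited −log10 p. The depth of the libraries themselves is unknown.

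Peaks were counted over gene spans of RefSeq's gene table on GRCm38.p6 with flanks of 5 kb. Overlap needed 1 bp. Intervals are exact Poisson for counts, Clopper-Pearson for shares and conditional binomial for ratios, at 95%, and no p-value was computed. All 9 receptor genes are named, with the peak of highest −log10 p in each list, every overlapping peak and every peak within 1 kb of an end; of the partner genes, the 3 with most peaks and the 3 with the largest differences in either direction past 1.5-fold; of the NMDA and metabotropic receptor genes, the 2 of each with most peaks. Some genes of related lists are not reported here. The genes and lists were chosen with earlier results of these data known, and the windows at annotated starts were added after the promoter table was seen. Base composition of the peaks themselves was planned but not computed, since no genome sequence was at hand. Gene counts, overlaps and the recovery of peak depth were tested on simulated data. The intervals were not part of that test. Alternatives were other flanks, stricter −log10 p, merged peaks, other overlap rules, other start windows and leaving out each gene. Python 3.11.15 with pandas 2.3.3, NumPy 2.4.6, SciPy 1.17.1 and Matplotlib 3.10.9 was used.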

Additional observations from a re-analysis of the deposited data

How the results depend on the processing

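No paired analysis was possible because each condition had 1 library. With a −log10 p of at least 2, 94 and 94 peaks remained in the control and MICAL1-FL lists. Densities fell to 23.7 and 36.1 per Mb (AMPA, kainate) in the control and 30.8 and 31.8 with MICAL1-FL. Past 1.5-fold were 4 of the 7 genes with at least 10 peaks, 3 upward and 1 downward. At 3 or more there were 20 and 14 peaks, a ratio of 0.700 (0.327 to 1.46), with densities of 5.27, 7.54, 3.52 and 5.38. The shares of shared peaks were 0% and 0%. Only 1 gene, Grik4, still had at least 10 peaks, and it was past 1.5-fold downward. The other genes could no longer be called in either direction. Fewer peaks enter by construction, and Gria4 had none left in either list. A flank of 20 kb put 5 of the 8 genes with at least 10 peaks past 1.5-fold, 4 upward. Leaving out Gria1 changed the control AMPA density to 21.0 per Mb, and leaving out Grik2 or Grik4 the control kainate density to 69.5 or 43.6. Peaks up to 1 kb apart counted as shared gave 19.9% and 19.3%. Within 3 kb of a gene end, 7, 7 and 6 genes had a peak in the control, with MICAL1-FL and in both lists. Within 3 kb of the start, 5 had one in both. A wider window or flank takes in more peaks at any gene. Shares of all genes under these alternatives, the stricter −log10 p included, were not computed, so these counts have no background to be read against. The log2 ratio over the 9 genes relative to all genes, 0.10, became -0.02 without Gria4, -0.03 without Grik2 and -0.19 at a −log10 p of at least 3, and 0.28 without Grik4, 0.20 with a flank of 20 kb and 0.18 without Gria1, all with intervals that include 0. Of the values that answer a comparison, 171 stayed the same under the alternatives and 26 moved. For single genes the numbers were 122 and 30. Some of the 171 could not move, such as the AMPA receptor density when a kainate receptor gene was left out, or the reverse. Leaving out Gria3 was also counted again on autosomes alone, so the 171 and 26 do not measure how firm the results are. A value with an interval counted as the same inside its main interval, and a plain count within 1.5-fold of its main value. Depths of 4 to 9 fragments per peak limit all values.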
